A study of Mus musculus with 2 samples.

Results

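The clustered protocadherins are 57 protein-coding genes that lie head to tail on mouse chromosome 18, and they are described here by where the GFP and the SRCAP antibody gave CUT&RUN peaks over them. Members were the protein-coding genes of GENCODE vM21 (GRCm38) on chromosome 18 whose symbols start with Pcdha (14 genes, of which 2 gene records share the symbol Pcdha11), Pcdhb (22 genes) or Pcdhg (21 genes), out of 21951 protein-coding genes in all. All 57 were on the plus strand, and the locus from the first to the last of them ran over chr18:36930184-37841873, or 912 kb. It held 43 of the 28718 GFP peaks and 31 of the 28167 SRCAP peaks. The rule that picks the members uses their names and their place.

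CUT&RUN cuts and releases the DNA next to a bound antibody in nuclei, and each of the 2 libraries was made from 100000 SYAT mouse embryonic stem cells (mESCs) fixed with 0.1% formaldehyde for 5 min. SYAT cells are a CGR8 line in which both alleles of Srcap carry YPet and an auxin-inducible degron (AID) at their 3′ end and which expresses the OsTir1 receptor. The libraries' labels name no treatment, and in the study the CUT&RUN map is one of control cells, which were kept in auxinole without auxin. SRCAP is the catalytic subunit of the complex that exchanges H2A for the histone variant H2A.Z, and YPet is a fluorescent protein that antibodies against GFP bind, so both antibodies were directed at the same fusion protein. Each antibody had 1 library, so no difference between antibodies could be set against a spread between replicates, and no significance test is given. The files hold peaks and no read counts, so depth is unknown. The cells were pooled, so a site bound in fewer cells and a site bound more weakly in every cell cannot be told apart.

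Clustered protocadherins are cell adhesion proteins of neurons, and each neuron displays its own combination of them, by which its branches recognise and avoid one another. Each Pcdha and Pcdhg protein is encoded by 1 variable exon with a promoter of its own, spliced to constant exons at the end of its cluster, while each Pcdhb protein is encoded by a single coding exon. Promoter choice is known to involve antisense transcription, DNA methylation, and CTCF with cohesin, which loop a promoter to an enhancer. The C-type members (Pcdhac1, Pcdhac2, Pcdhgc3, Pcdhgc4 and Pcdhgc5) are known to be expressed in most neurons of a type rather than by random choice. mESCs are not neurons, and these lists say where the antibodies gave peaks, not whether a gene was transcribed.

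A gene was counted as having a promoter peak where the midpoint of a peak lay from 1000 bp upstream to 500 bp downstream of any of its transcription start sites (TSSs). By that rule the GFP list had a promoter peak at 22 of the 57 members, or 38.6% (95% Wilson interval 27.1% to 51.6%), beside 35.0% of all protein-coding genes. In the SRCAP list it was 17 of 57, or 29.8% (19.5% to 42.7%), beside 35.6% of all protein-coding genes. In both lists at once it was 10 members, or 17.5% (9.82% to 29.4%), beside 27.0% of all. Each of these 3 intervals includes the share of all protein-coding genes given beside it. These intervals cover counting error over genes only, and neighbouring genes are not independent.

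The 3 clusters did not share these peaks evenly. Of the 21 Pcdhg genes, 13 had a GFP promoter peak and 13 a SRCAP one, which is 61.9% (40.9% to 79.2%) each. Among the 22 Pcdhb genes it was 7 (31.8%, 16.4% to 52.7%) and 3 (13.6%, 4.75% to 33.3%). Among the 14 Pcdha genes it was 2 (14.3%, 4.01% to 39.9%) and 1 (7.14%, 1.27% to 31.5%). Of all protein-coding genes it was 35.0% (GFP) and 35.6% (SRCAP). The Pcdhg intervals lie above these shares. The Pcdha and Pcdhb intervals include the GFP share and lie under the SRCAP one, and the GFP intervals of Pcdhb and Pcdhg overlap. Of the 10 members with a peak in both lists, 9 were Pcdhg genes, 1 was a Pcdhb gene and 0 were Pcdha genes. In at least 1 of the lists, 29 of the 57 members had a promoter peak (50.9%, 38.3% to 63.4%), beside 43.6% of all protein-coding genes, and of these 29 members 17 were Pcdhg genes, 9 Pcdhb genes and 3 Pcdha genes.

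**Figure D1:**
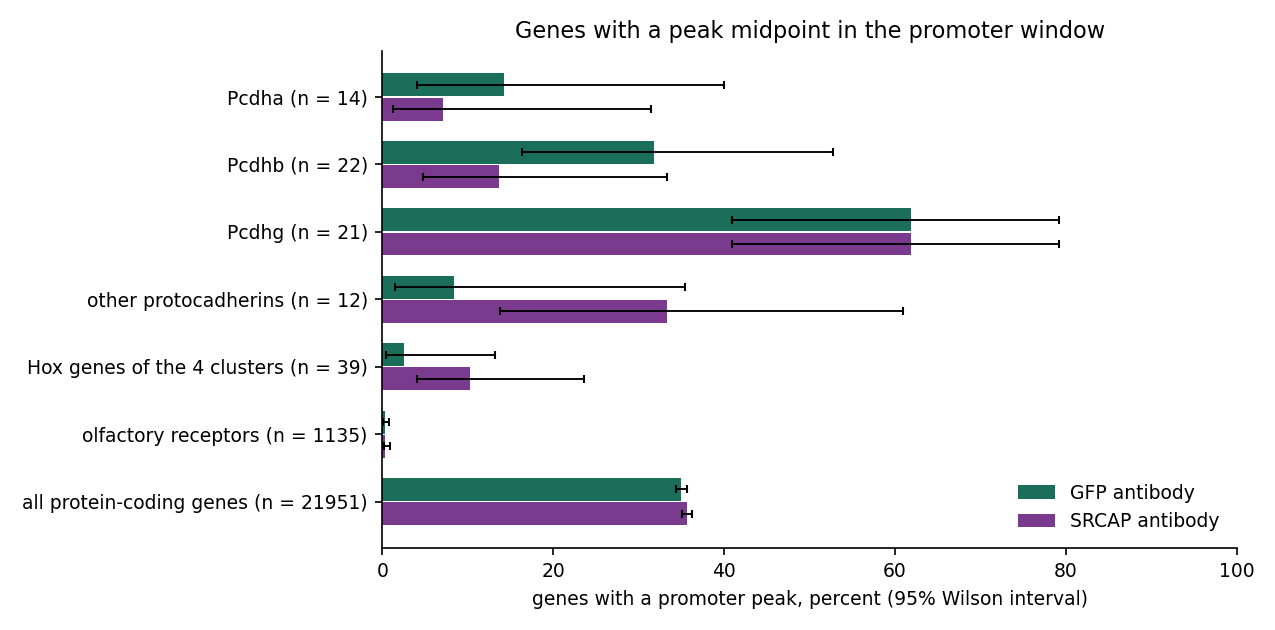
Percentage of genes with a peak midpoint in the promoter window, by gene group (rows) and antibody (bars, 1 library each), with 95% Wilson intervals as lines. Pcdhg stands at 61.9% in both lists, above the 35.0% and 35.6% of all protein-coding genes, and Pcdha stands at 14.3% and 7.14%.

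Within Pcdhg the A subfamily carried most of the promoter peaks. Of its 12 members (Pcdhga1 to Pcdhga12), 11 had a GFP one (91.7%, 64.6% to 98.5%) and 8 a SRCAP one (66.7%, 39.1% to 86.2%). Each of the 8 was among the 11. The B subfamily has 6 protein-coding members, of which the GFP list marked 2 (Pcdhgb1 and Pcdhgb4) and the SRCAP list 4 (Pcdhgb1, Pcdhgb2, Pcdhgb5 and Pcdhgb7). As shares of the B subfamily these were 33.3% (9.68% to 70.0%) and 66.7% (30.0% to 90.3%). Of the 3 C-type members of the cluster, 0 had a GFP promoter peak (0% to 56.1%) and 1, Pcdhgc3, had a SRCAP one (33.3%, 6.15% to 79.2%). Of all protein-coding genes it was 35.0% (GFP) and 35.6% (SRCAP). The intervals of the A subfamily lie above these shares, and those of the B subfamily and the C-type members include them. The 4 Pcdhg genes with a promoter peak in neither list were Pcdhga12, Pcdhgb6, Pcdhgc4 and Pcdhgc5.

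At the start of the Pcdhg cluster, peaks of both lists lay at each of 5 neighbouring genes in a row. The scores are the whole numbers that the lists give per peak, of which the lowest is 13 in either list and the median 47, and what they measure was not stated. At Pcdhga1 the GFP peak covered chr18:37661645-37661991 (347 bp, score 84), and the SRCAP peak covered chr18:37661680-37661960 (281 bp, score 40). The peaks of Pcdhga2 lay at chr18:37668756-37669334 in the GFP list (579 bp, score 100) and at chr18:37668796-37669093 in the SRCAP list (298 bp, score 89). For Pcdhga3 they lay at chr18:37674293-37674756 (GFP, 464 bp, score 89) and at chr18:37674214-37674682 (SRCAP, 469 bp, score 89). These 3 genes had GFP scores above 80% of all peaks of that list. Pcdhgb1 had a GFP peak at chr18:37680169-37680560 (392 bp, score 77) and a SRCAP peak at chr18:37680193-37680493 (301 bp, score 107), the highest SRCAP score at any member. Pcdhga4 had a GFP peak at chr18:37685218-37685464 (247 bp, score 92) and a SRCAP peak at chr18:37685250-37685464 (215 bp, score 43).

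Further along the cluster the lists met less regularly. Pcdhgb2 had a SRCAP peak only, at chr18:37689796-37690016 (221 bp, score 25). Pcdhga5 had a GFP peak only, at chr18:37694326-37694598 (273 bp, score 34), with a second GFP peak at chr18:37695009-37695212 (204 bp, score 27) 731 bp into the gene and so outside the promoter window. Pcdhga6 was listed with a GFP peak at chr18:37706884-37707280 (397 bp, score 79) and a SRCAP peak at chr18:37707067-37707259 (193 bp, score 23). At this last gene the GFP peak ranked at the 79.4th percentile of its list and the SRCAP peak at the 11.4th percentile of its own. Pcdhga7 had both as well, at chr18:37714693-37715215 (GFP, 523 bp, score 97) and chr18:37714693-37714978 (SRCAP, 286 bp, score 47). Pcdhgb4 had a GFP peak only, at chr18:37720332-37720643 (312 bp, score 86). The same held for Pcdhga8, whose GFP peak at chr18:37725644-37726102 (459 bp, score 70) was also in the promoter window of the antisense gene Gm37165.

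The order of the lists then turned at Pcdhgb5, which had a SRCAP peak only, at chr18:37730927-37731350 (424 bp, score 95). Both lists had a peak at Pcdhga9, at chr18:37736898-37737168 (GFP, 271 bp, score 58) and chr18:37736833-37737139 (SRCAP, 307 bp, score 53). Both also had one at Pcdhga10, at chr18:37746993-37747399 (GFP, 407 bp, score 60) and chr18:37746993-37747278 (SRCAP, 286 bp, score 43). Between those and the C-type genes each remaining peak was in 1 list alone. Pcdhgb7 had a SRCAP peak at chr18:37751555-37751769 (215 bp, score 33). Pcdhga11 had a GFP peak at chr18:37755704-37755915 (212 bp, score 35) and a second one at chr18:37756145-37756405 (261 bp, score 30), whose midpoint was 544 bp downstream of the TSS. Both of these lay in a promoter window of the non-coding gene Gm26672. Pcdhgc3 had a SRCAP peak at chr18:37806028-37806377 (350 bp, score 47), whose midpoint lay at -161 bp from its first TSS, in an exon of the antisense gene BC037039.

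**Figure D2:**
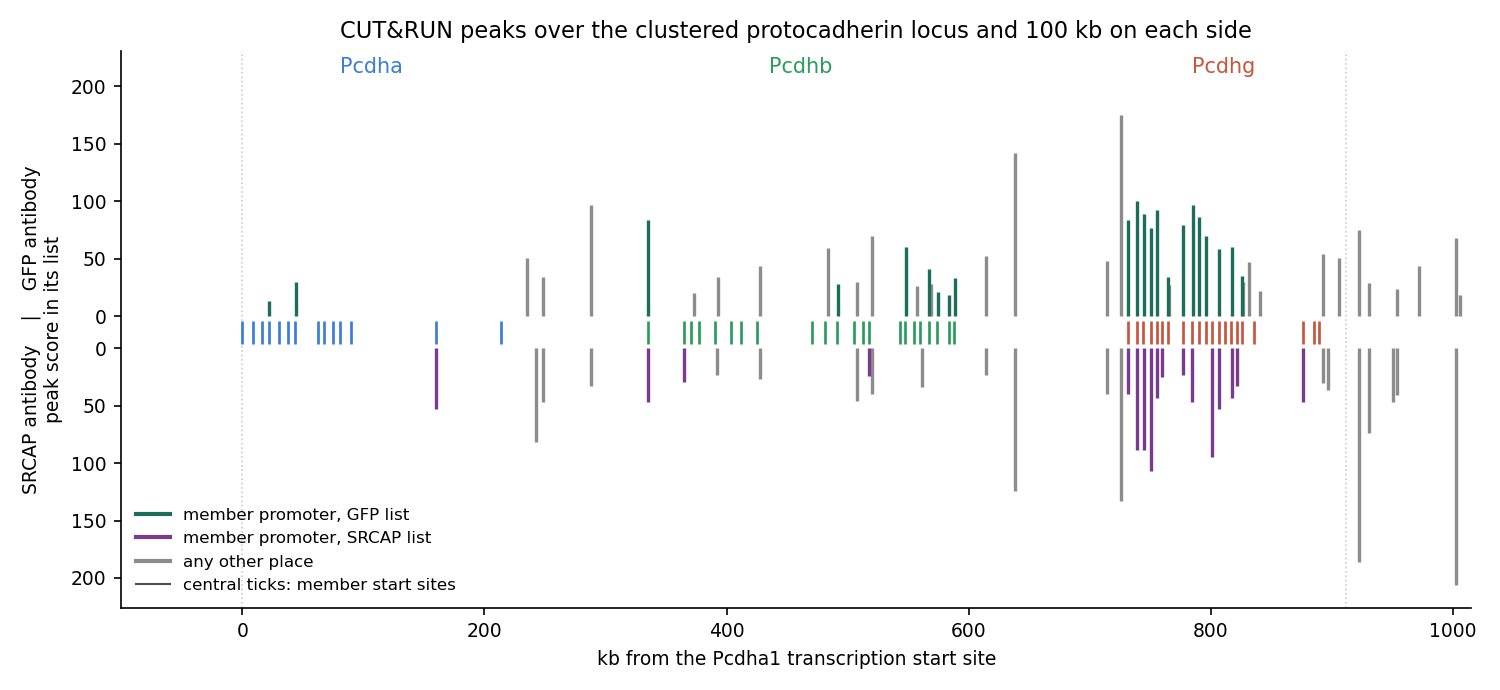
Score of each peak (vertical axis, GFP list upward and SRCAP list downward, in each list's own score) against its distance in kb from the Pcdha1 TSS, with coloured central ticks at the members' TSSs and dotted lines at the ends of the locus. Peaks in member promoters crowd over the Pcdhg cluster, while the 2 highest GFP scores of the locus, 142 and 175, are at places that are no member promoter.

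Promoter peaks of Pcdhg sat close to the TSS and mostly on its downstream side. In the GFP list all 13 midpoints lay 25 to 218 bp downstream of the gene's first TSS (median 119 bp), and 10 of these 13 were in the 5′ UTR and 3 in coding sequence. In the SRCAP list the 13 midpoints lay at -161 to 147 bp from it (median 78 bp), and 11 of these 13 were in the 5′ UTR. The coding part of the variable exon began a median 184 bp after the TSS in this cluster, so the GFP midpoints lay around the first codons. The highest peak of a gene was used for these offsets. For all protein-coding genes the 500 bp just upstream of the first TSS held a GFP midpoint more often than the 500 bp just downstream (18.2% and 9.21% of genes), whereas for Pcdhg it was 0% and 61.9%. In the SRCAP list it was 18.8% and 9.74% of all protein-coding genes, and 9.52% and 52.4% of Pcdhg genes. Pcdhb genes also had more midpoints downstream, at 4.55% and 22.7% (GFP) and 4.55% and 9.09% (SRCAP). For Pcdha genes it was 7.14% on each side (GFP), and 0% and 7.14% (SRCAP).

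GFP scores at Pcdhg promoters ran from 34 to 100 with a median of 79 (n = 13 peaks), beside a median of 53 over the 7683 GFP peaks in promoter windows of protein-coding genes. SRCAP scores at Pcdhg promoters ran from 23 to 107 with a median of 47 (n = 13 peaks), beside a median of 54 over 7780 such SRCAP peaks. That SRCAP median equals the median of 47 over the whole SRCAP list.

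**Figure D3:**
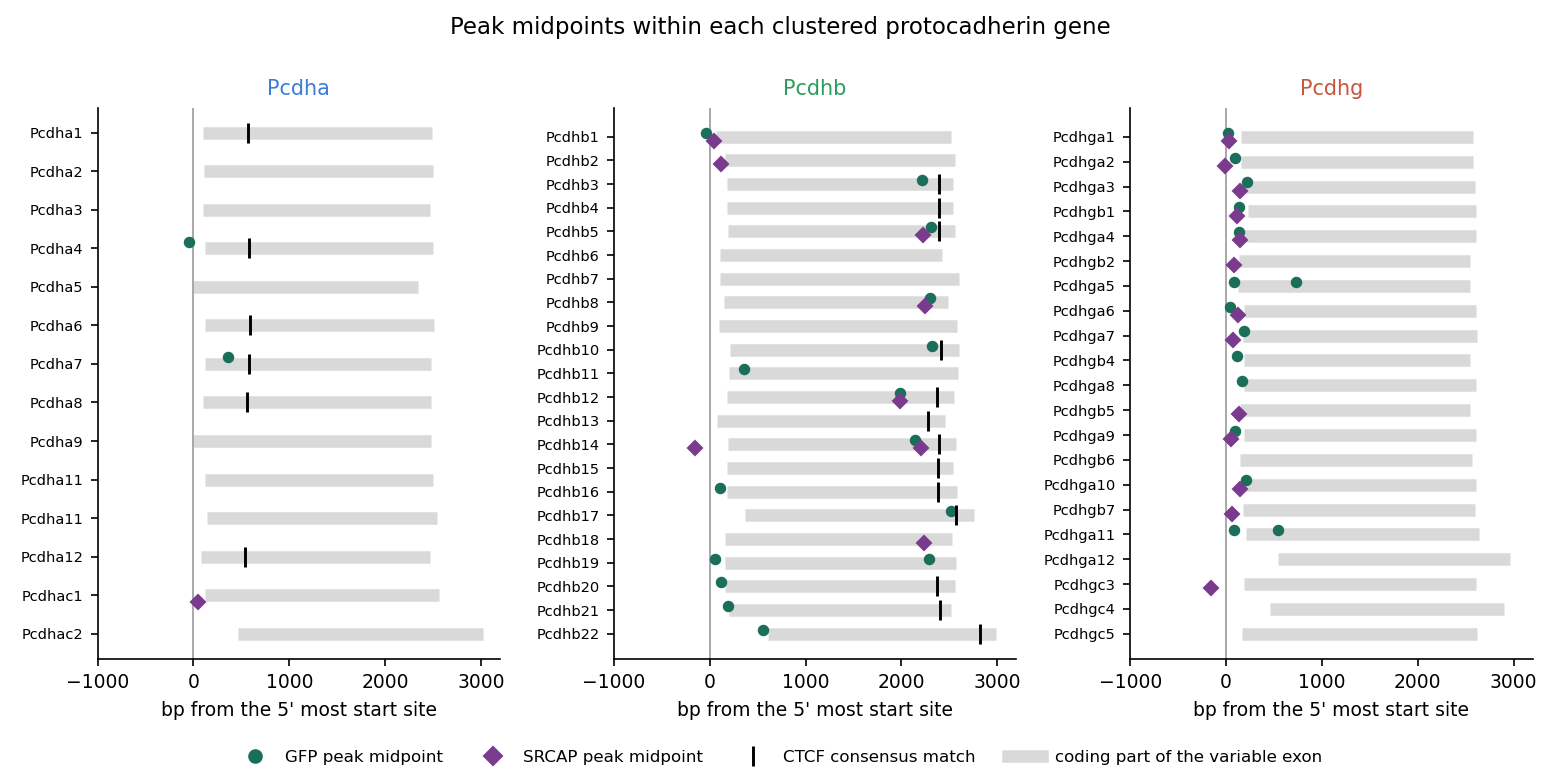
Peak midpoints of the GFP list (circles) and the SRCAP list (diamonds) in bp from the most upstream TSS of each of the 57 members, with the coding part of the variable exon as a grey bar and matches to the CTCF consensus as black strokes. Pcdhg peaks stand at the start of the exon, Pcdhb peaks at its start or 1981 to 2516 bp into the gene, and few Pcdha genes have any.

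Pcdhb promoters had fewer and lower peaks than Pcdhg promoters, though their GFP share of 31.8% was near the 35.0% of all protein-coding genes. Pcdhb1 was the one member of its cluster with a promoter peak in both lists, at chr18:37264645-37265144 (GFP, 500 bp, score 84) and chr18:37264816-37265144 (SRCAP, 329 bp, score 47). It has the highest CpG ratio of the cluster (0.450, defined below with promoter composition). The other 6 GFP promoter peaks were at Pcdhb11, Pcdhb16, Pcdhb19, Pcdhb20, Pcdhb21 and Pcdhb22. The peak of Pcdhb11 covered chr18:37421645-37421902 (258 bp, score 28) and that of Pcdhb16 covered chr18:37477789-37478047 (259 bp, score 60). Pcdhb19 had one at chr18:37496874-37497215 (342 bp, score 41). The last 3 genes of the cluster had scores of 21 at Pcdhb20 (chr18:37504272-37504484, 213 bp), 18 at Pcdhb21 (chr18:37513594-37514033, 440 bp) and 33 at Pcdhb22 (chr18:37518304-37518546, 243 bp). The midpoint at Pcdhb22 was 554 bp after its first TSS and was counted through its second one.

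In the SRCAP list the other 2 were at Pcdhb2 (chr18:37294819-37295033, 215 bp, score 29) and Pcdhb14 (chr18:37447353-37447641, 289 bp, score 24). Over the cluster the median promoter score was 33 for GFP (n = 7 peaks) and 29 for SRCAP (n = 3 peaks), both under the list medians.

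A second set of Pcdhb peaks lay near the other end of the coding exon. Its window, with midpoints 1.5 to 3 kb downstream of the first TSS, was set after these positions were seen, so its counts are a description only. In the GFP list 8 of the 22 Pcdhb genes had such a peak (36.4%, 19.7% to 57.0%), beside 2.54% of all protein-coding genes. In the SRCAP list it was 5 of 22 (22.7%, 10.1% to 43.4%), beside 2.37% of all. Not 1 Pcdha or Pcdhg gene had a peak in that window in either list, nor did any of the 12 protocadherins outside the locus. The shared peaks of Pcdhgc5 lay just past its edge, at 3273 bp (GFP) and 3202 bp (SRCAP) after the first TSS. Of the 39 Hox genes, 0 had a GFP peak in the window and 3 a SRCAP one (7.69%, 2.65% to 20.3%).

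The 4 genes with such a peak in both lists were Pcdhb5, Pcdhb8, Pcdhb12 and Pcdhb14. Pcdhb5 had them at chr18:37322550-37322835 (GFP, 286 bp, score 34) and chr18:37322480-37322736 (SRCAP, 257 bp, score 23). Pcdhb8 had them at chr18:37357319-37357514 (GFP, 196 bp, score 44) and chr18:37357230-37357504 (SRCAP, 275 bp, score 27). For Pcdhb12 they were at chr18:37437490-37437717 (GFP, 228 bp, score 30) and chr18:37437443-37437761 (SRCAP, 319 bp, score 46), also within the promoter window of the antisense gene Gm37446. The strongest of the set by GFP score was at Pcdhb14, at chr18:37449568-37450036 (469 bp, score 70), with a SRCAP peak at chr18:37449665-37450059 (395 bp, score 40).

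The GFP list alone had one at Pcdhb3 (chr18:37302908-37303126, 219 bp, score 20), Pcdhb10 (chr18:37413846-37414120, 275 bp, score 59), Pcdhb17 (chr18:37487209-37487412, 204 bp, score 26) and Pcdhb19 (chr18:37499177-37499373, 197 bp, score 28). The SRCAP list alone had one at Pcdhb18 (chr18:37491609-37491789, 181 bp, score 34). All 13 peaks of the set had their midpoint in coding sequence. The coding part ended a median 2558 bp after the TSS in this cluster, and the GFP midpoints lay 1983 to 2516 bp after it (median 2290 bp, n = 8) and the SRCAP midpoints 1981 to 2246 bp (median 2227 bp, n = 5).

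The 22 Pcdhb genes were then sorted by where their peaks lay. In the GFP list 6 genes had a promoter peak alone, 7 a downstream peak alone, 1 (Pcdhb19) had both and 8 had neither. In the SRCAP list the counts were 2, 4, 1 (Pcdhb14) and 15. In neither list and at neither place was there a peak at Pcdhb4, Pcdhb6, Pcdhb7, Pcdhb9, Pcdhb13 or Pcdhb15. Coding exons as a whole put these counts in scale: GFP midpoints fell in Pcdhb coding sequence at 171 per Mb (exact 95% Poisson interval 78.4 to 325, 9 peaks in 52.5 kb), beside 23.7 per Mb over all coding exons. In the SRCAP list it was 95.2 per Mb (30.9 to 222, 5 peaks) beside 26.3 per Mb. Of these peaks, 8 of the 9 GFP and all 5 SRCAP ones were those of the downstream set. Pcdhg coding sequence held 97.7 GFP midpoints per Mb (31.7 to 228, 5 peaks) and 0 SRCAP ones (0 to 72.1). Pcdha coding sequence held 29.3 GFP midpoints per Mb (0.741 to 163, 1 peak) and 0 SRCAP ones (0 to 108).

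Pcdha had the fewest promoter peaks. Its 2 GFP peaks were weak by score, with 13 at Pcdha4 (chr18:36952503-36952697, 195 bp), which is the lowest score that the list holds, and 30 at Pcdha7 (chr18:36974033-36974293, 261 bp). The Pcdha4 peak was also in the promoter windows of the antisense gene Gm38225 and of the predicted gene Gm42416. Its 1 SRCAP peak was at Pcdhac1 (chr18:37089875-37090237, 363 bp, score 53), 43 bp after the TSS of this C-type gene. The 11 other Pcdha genes, Pcdhac2 among them, had a promoter peak in neither list. Taken over both clusters, 0 of the 5 C-type genes had a GFP promoter peak (0%, 0% to 43.4%). The SRCAP list had one at 2 of them (Pcdhac1 and Pcdhgc3, 40.0%, 11.8% to 76.9%). These intervals include the 35.0% (GFP) and 35.6% (SRCAP) of all protein-coding genes.

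Over the locus, 21 of the 43 GFP peaks were shared, that is, overlapped a peak of the SRCAP list by at least 1 bp (48.8%, Wilson interval 34.6% to 63.2%), beside 56.2% of all GFP peaks. From the other side, 21 of the 31 SRCAP peaks were shared (67.7%, 50.1% to 81.4%), beside 57.7% of all SRCAP peaks. Midpoints of the 21 pairs were a median 71 bp apart and at most 212 bp. In 18 of these 21 pairs the GFP peak ranked higher in its list than the SRCAP peak did in its own, beside 52.7% of the 16313 overlapping pairs of the whole lists. The 3 exceptions were at Pcdhgb1, Pcdhb12 and the non-coding gene Gm10544. At the 9 shared Pcdhg promoters the median score was 84 for GFP and 47 for SRCAP.

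Peaks of the locus outside member promoters numbered 21 (GFP) and 14 (SRCAP), of which 8 and 5 were the Pcdhb coding exon peaks above and 2 GFP peaks were those in the coding sequence of Pcdhga5 and Pcdhga11. The highest of the whole locus in either list lay at the start of the long non-coding RNA gene 3222401L13Rik, which runs toward Pcdhga1 and ends near its TSS. There the GFP peak covered chr18:37655548-37656104 (557 bp, score 175) and the SRCAP peak chr18:37655519-37655977 (459 bp, score 133). Next by score was a place between the Pcdhb and Pcdhg clusters, outside annotated exons, at chr18:37567955-37568669 in the GFP list (715 bp, score 142) and chr18:37568053-37568508 in the SRCAP list (456 bp, score 124). Much of this place is masked as repeats in the genome sequence, at 87.4% of the bases of the GFP peak and 91.7% of those of the SRCAP peak. Taf7, which encodes a subunit of the general transcription factor TFIID and lies between the same clusters, had promoter peaks at chr18:37644283-37644578 (GFP, 296 bp, score 48) and chr18:37644111-37644326 (SRCAP, 216 bp, score 40). The nearby solute carrier gene Slc25a2 had a promoter peak in neither list.

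Between the Pcdha and Pcdhb clusters both lists had a peak outside annotated exons, at chr18:37217827-37218270 (GFP, 444 bp, score 97) and chr18:37218028-37218468 (SRCAP, 441 bp, score 33). An enhancer of the Pcdha promoters that binds CTCF is known to lie downstream of the Pcdha constant exons, but the annotation used here does not mark it. Both lists also had a peak at the start of Gm10544, a non-coding gene on the opposite strand within the Pcdha cluster, at chr18:37178311-37178614 (GFP, 304 bp, score 34) and chr18:37178397-37178560 (SRCAP, 164 bp, score 47). Both had a peak between Pcdhb22 and Taf7, at chr18:37543850-37544247 (GFP, 398 bp, score 52) and chr18:37543589-37544353 (SRCAP, 765 bp, score 23), of which 92.0% and 91.5% of the bases are masked as repeats. Every other peak of the locus and its flanks had 0% to 33.8% of its bases masked, and the part of repeats in the peaks at these 2 places was not tested. A last shared place was in an exon of a Pcdhgc5 transcript, at chr18:37822607-37822965 (GFP, 359 bp, score 54) and chr18:37822600-37822830 (SRCAP, 231 bp, score 30).

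The remaining places were in 1 list only. The GFP list had peaks outside exons at chr18:37165408-37165742 (score 51), chr18:37770818-37771098 (score 22) and chr18:37835558-37835929 (score 51), and at the start of Pcdhgb8 (chr18:37761405-37761873, score 47), which is annotated as a polymorphic pseudogene and so was not counted as a member. The SRCAP list had a peak at the antisense gene Gm38097 (chr18:37172465-37172815, score 82) and one outside exons at chr18:37826399-37826840 (score 36). Of the 28 genes of the locus that are no members, 9 had a GFP promoter peak and 5 a SRCAP one, most of them non-coding or antisense genes.

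The flanks of 100 kb differed from each other. Upstream of Pcdha1 there was no peak in either list. Downstream of Pcdhg there were 6 GFP and 5 SRCAP peaks, all but 1 of them within Diaph1, which encodes a formin that nucleates actin filaments. Enhancers of Pcdhb genes are known to lie beyond the end of the Pcdhg cluster, and the annotation used here does not mark them either. Shared peaks there lay at chr18:37852144-37852615 (GFP, score 75) and chr18:37852144-37852608 (SRCAP, score 186), and at chr18:37932629-37932865 (GFP, score 68) and chr18:37932590-37932878 (SRCAP, score 206). A further 2 pairs (GFP scores 29 and 24, SRCAP scores 74 and 41) lay at chr18:37860331-37860528 and chr18:37883821-37884051, with their SRCAP partners at chr18:37860211-37860365 and chr18:37883580-37883942. In all 4 of these pairs the SRCAP peak ranked higher in its list, the opposite of 18 of the 21 pairs inside the locus. The GFP list alone had peaks at chr18:37901820-37902320 (score 44) and, in the promoter window of Diaph1, at chr18:37935742-37935942 (score 18), and the SRCAP list alone had one at chr18:37880284-37880467 (score 47). Hdac3, which encodes a histone deacetylase and ends in this flank, had a promoter peak in neither list.

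Per length, the locus was dense in peaks. The GFP list had 47.2 peaks per Mb of it (exact Poisson interval 34.1 to 63.5) beside 9.05 on the rest of chromosome 18 and 11.9 on the other autosomes. The SRCAP list had 34.0 per Mb (23.1 to 48.3) beside 8.18 and 11.8. The locus is also dense in genes, with 68.0 protein-coding genes per Mb beside 8.79 on the other autosomes. Per protein-coding gene it thus held fewer peaks than the other autosomes, at 0.69 GFP and 0.50 SRCAP peaks per gene beside 1.35 and 1.34. Within the locus the Pcdhg segment was the densest in both lists, with 106 GFP peaks per Mb (63.5 to 165, 19 peaks) and 83.3 SRCAP peaks per Mb (46.6 to 137, 15 peaks). The Pcdhb segment had 53.9 (29.5 to 90.5, 14 peaks) and 30.8 (13.3 to 60.7, 8 peaks), and the Pcdha segment 15.5 (4.23 to 39.8, 4 peaks) and 11.7 (2.40 to 34.1, 3 peaks), whose intervals include the density of the other autosomes. The Pcdhg segment was also the densest in protein-coding genes, at 117 per Mb. Per gene it held 0.90 GFP and 0.71 SRCAP peaks, fewer than the 1.35 and 1.34 of the other autosomes.

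**Figure D4:**
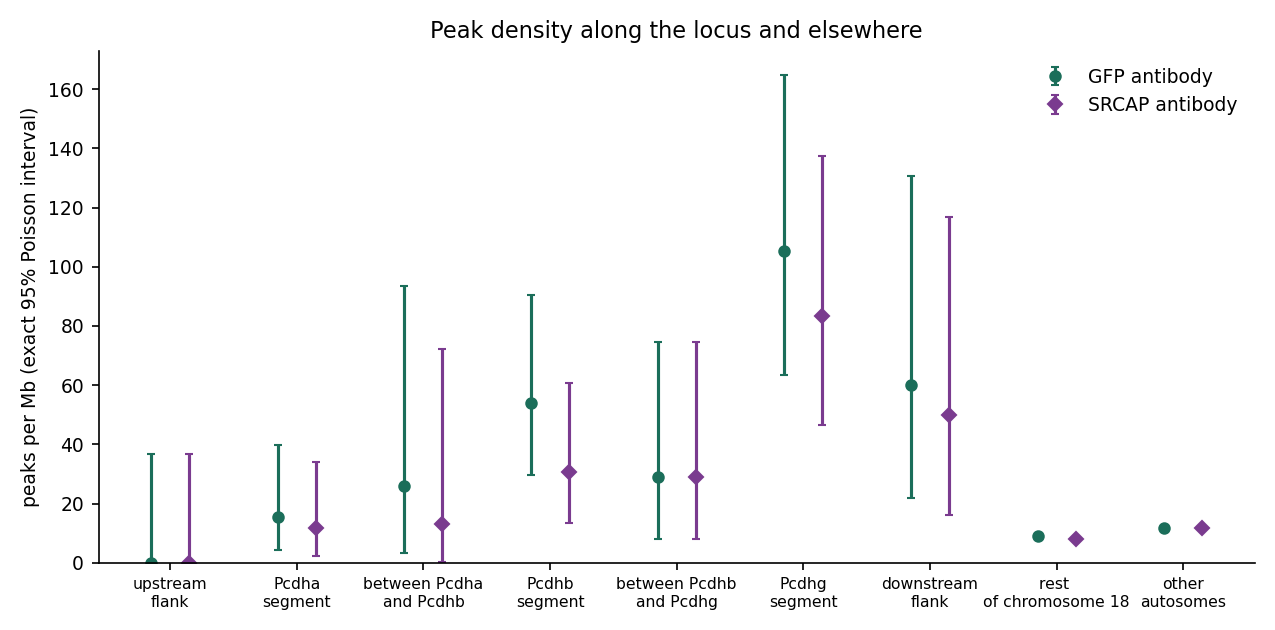
Peaks per Mb of sequenced bases in each segment of the locus, in the flanks of 100 kb and elsewhere, for the GFP list (circles) and the SRCAP list (diamonds), with exact 95% Poisson intervals as lines. Density is highest in the Pcdhg segment (106 and 83.3 per Mb) and 0 in the upstream flank.

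Member promoters were low in GC. The median GC content of the promoter window at the most upstream TSS, read from the GRCm38 sequence, was 41.4% over the 57 members (range 34.8% to 51.8%), beside 51.7% over 21938 protein-coding genes of the nuclear chromosomes. The CpG ratio is the number of CpG dinucleotides over that expected from the C and G content, and here the clusters differed. It had a median of 0.601 in Pcdha (0.504 to 0.680), 0.345 in Pcdhb (0.138 to 0.450) and 0.513 in Pcdhg (0.206 to 0.820), beside 0.482 over all protein-coding genes. Pcdha, the cluster with the highest median CpG ratio, was thus the one with the fewest promoter peaks.

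Across all protein-coding genes, promoters with a peak had more CpG: the median ratio was 0.626 with and 0.311 without a GFP promoter peak. Members did not show that difference in the GFP list, with 0.468 for the 22 with and 0.504 for the 35 without a peak, and in the SRCAP list the medians were 0.485 for 17 with and 0.418 for 40 without. The SRCAP medians went the other way within Pcdhg (0.497 with and 0.551 without) and Pcdha (0.520 for the 1 gene with and 0.603 without), and the same way within Pcdhb (0.394 for the 3 genes with and 0.309 without). Of the members with a CpG ratio under 0.6, 19 of 46 had a GFP promoter peak (41.3%, 28.3% to 55.7%) and 14 of 46 a SRCAP one (30.4%, 19.1% to 44.8%), beside 25.0% and 25.2% of all genes in that class. At 0.6 or more it was 3 of 11 in each list (27.3%, 9.75% to 56.6%), beside 52.2% and 53.5% of all genes. By cluster, 11 of the 17 Pcdhg genes under 0.6 had a GFP promoter peak (64.7%, 41.3% to 82.7%) and 10 a SRCAP one (58.8%, 36.0% to 78.4%), while 1 of the 7 Pcdha genes at 0.6 or more had a GFP promoter peak and 0 had a SRCAP one.

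A narrower class, added after the values were seen, held most Pcdhg genes. With a CpG ratio of 0.4 to 0.6, 11 of 15 Pcdhg genes had a GFP promoter peak (73.3%, 48.0% to 89.1%) and 10 of 15 a SRCAP one (66.7%, 41.7% to 84.8%), beside 49.1% and 49.0% of the 4341 protein-coding genes of that class. In the same class 1 of 7 Pcdha genes had one in each list (14.3%, 2.57% to 51.3%). Of the 15 Pcdhb genes with a ratio of 0.2 to 0.4, 4 had a GFP promoter peak and 2 a SRCAP one (26.7% and 13.3%), beside 23.9% and 24.4% of all genes of that class.

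**Figure D5:**
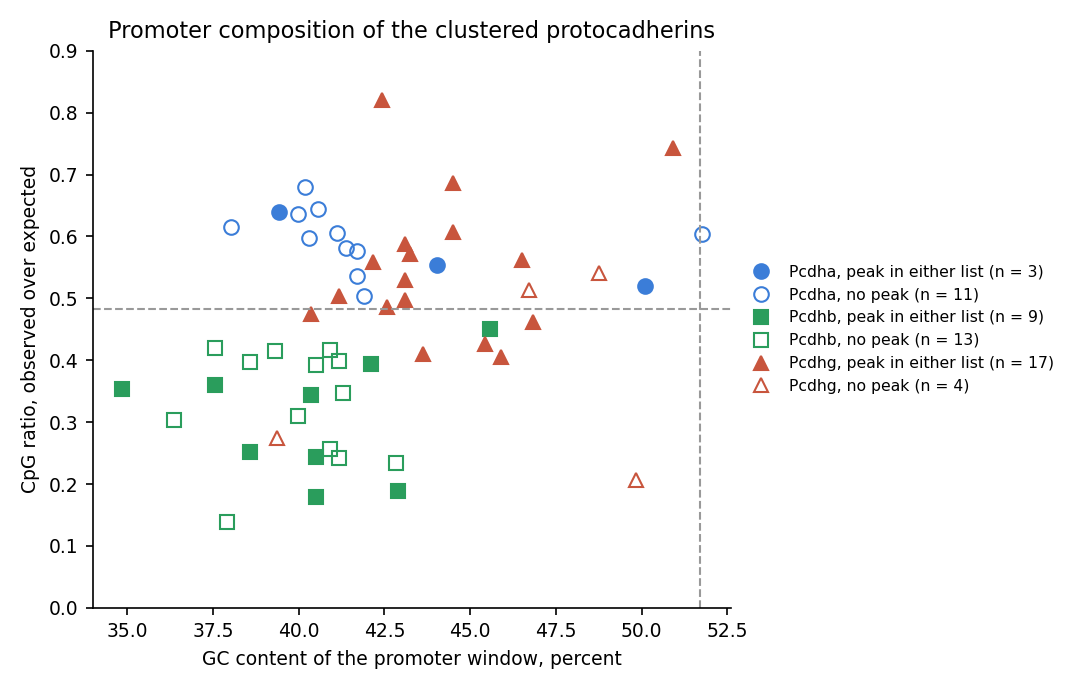
CpG ratio (vertical axis) against GC content in percent (horizontal axis) of the promoter window of each member, by cluster (colour and shape), filled where either list had a promoter peak, with dashed lines at the medians of all protein-coding genes (51.7% GC and a ratio of 0.482). Pcdha genes lie high in CpG ratio with few filled symbols, and Pcdhb genes lie low.

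CTCF is the DNA-binding protein that anchors promoter loops in these clusters, and its 12-letter consensus was searched on both strands by its published letters, which include ambiguous positions. No member promoter window held an exact match, beside 1.43% of all protein-coding promoters. Exact matches were instead found inside the variable exons: 6 of the 14 Pcdha genes held 1, 543 to 587 bp after the TSS and all on the plus strand, and 13 of the 22 Pcdhb genes held 1, 2277 to 2816 bp after the TSS and all on the minus strand. In Pcdhg there was no exact match in a variable coding exon. Matches with 1 mismatch were searched in promoter windows only, so sites unlike the exact consensus could be missed. The locus as a whole held 20 matches, or 21.9 per Mb, beside 5.11 per Mb on the autosomes. Within 2500 bp either side of the TSS, 33.3% of members and 3.99% of all protein-coding genes held a match. A match is a stretch of letters and not a measured binding site.

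These matches and the downstream Pcdhb peaks lay at like distances from the TSS. Of the 13 Pcdhb matches, 5 were within 250 bp of a GFP peak midpoint (at Pcdhb3, Pcdhb5, Pcdhb10, Pcdhb14 and Pcdhb17) and 2 within 250 bp of a SRCAP one (at Pcdhb5 and Pcdhb14). The nearest was 57 bp from the GFP midpoint of Pcdhb17. Of the 13 matches, 3 lay inside a GFP peak (at Pcdhb5, Pcdhb10 and Pcdhb17) and 1 inside a SRCAP peak (at Pcdhb14). A downstream peak in either list was found at 6 of the 13 Pcdhb genes with a match and at 3 of the 9 without one (Pcdhb8, Pcdhb18 and Pcdhb19), so there were peaks without a match and matches without a peak. Among Pcdha, the match of Pcdha7 was 223 bp from its GFP peak, and the other 5 were 628 bp or more from any GFP midpoint. The 1 match of the locus outside a member, on the minus strand, lay 575 bp from the GFP midpoint and 774 bp from the SRCAP midpoint of the shared peak between Pcdha and Pcdhb. In the downstream flank, a match at chr18:37883734 lay inside a shared SRCAP peak, 27 bp from its midpoint, and 202 bp from the nearest GFP midpoint. Another match there, at chr18:37887174, was 3238 bp (GFP) and 3413 bp (SRCAP) from the nearest midpoints. Over all peaks, 4.25% of the GFP list and 5.27% of the SRCAP list held a match in the 500 bp at their midpoint, beside 5 of 43 and 2 of 31 in the locus.

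Near-identical copies could hide peaks where reads cannot be placed, so the share of 75-base stretches that occur once in the genome was taken for each member promoter, 75 nt being the read length. It was 100% at 37 of the 57 promoters, of which 3 of 14 were in Pcdha, 18 of 22 in Pcdhb and 16 of 21 in Pcdhg. The lowest was 85.7%, at a Pcdha11 gene, and the median was 94.7% in Pcdha and 100% in both other clusters. Over whole segments it was 87.3% for Pcdha, 92.1% for Pcdhb, 98.0% for Pcdhg, and 90.0% and 99.6% for the upstream and downstream flanks. The order of the 3 clusters by this segment share and by their share of genes with a promoter peak was the same in both lists. By the share of promoters at 100% the order was another, with Pcdhb (18 of 22) ahead of Pcdhg (16 of 21). The part of either measure in the peak counts was not tested.

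Other gene groups were set beside the members. Of the 12 protocadherin genes outside the locus, 1 (Pcdh17) had a GFP promoter peak (8.33%, 1.49% to 35.4%). A SRCAP one was at 4 (Pcdh1, Pcdh8, Pcdh17 and Pcdh20, 33.3%, 13.8% to 60.9%). Of all protein-coding genes it was 35.0% and 35.6%. Of the 39 Hox genes, which also lie in clusters, it was 1 (2.56%, 0.454% to 13.2%) and 4 (10.3%, 4.06% to 23.6%). Of 1135 olfactory receptor genes, a family from which each olfactory neuron expresses a single member, it was 3 (0.264%, 0.0899% to 0.774%) and 4 (0.352%, 0.137% to 0.903%).

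Of all protein-coding genes, 35.0% had a GFP promoter peak and 35.6% a SRCAP one. Among 15 genes known to regulate the clustered protocadherins it was 5 (33.3%, 15.2% to 58.3%) and 7 (46.7%, 24.8% to 69.9%), and each interval includes that share. Rad21 (a cohesin subunit), Stag1 (its partner), Mau2 (part of the cohesin loader) and Wapl (its release factor) had a promoter peak in both lists. The de novo DNA methyltransferase gene Dnmt3b had one in the GFP list alone, and Dnmt1, Smc3 and Wiz had one in the SRCAP list alone. Those with none in either list were Ctcf, Smc1a, Stag2, Nipbl, Smchd1, Setdb1 and Rest. Of 9 genes for proteins that act with or on protocadherins, 7 had a GFP promoter peak (77.8%, 45.3% to 93.7%). A SRCAP one was at 5 of the 9 (55.6%, 26.7% to 81.1%). Adam10 (the protease that sheds protocadherin ectodomains), Axin1, Cyfip1, Ptk2b and Wasf1 (a subunit of the WAVE complex) had one in both, Abi1 and Ptk2 in the GFP list alone, and Nckap1 and Cyfip2 in neither.

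The labelled cell type could be checked only through promoter peaks, which are no measure of expression. Of 8 pluripotency genes, 2 (Zfp42 and Tfcp2l1) had a promoter peak in each list, and Pou5f1, Sox2, Nanog, Esrrb, Klf4 and Dppa5a had none. Of 6 neuronal genes, 1 (Syt1) had a GFP promoter peak and 1 (Rbfox3) a SRCAP one. In each list it was 25.0% (7.15% to 59.1%) of the pluripotency genes and 16.7% (3.01% to 56.4%) of the neuronal genes. All these intervals include the 35.0% (GFP) and 35.6% (SRCAP) of all protein-coding genes, so the counts cannot tell cell types apart.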

How the data were processed

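CUT&RUN peaks of 2 libraries of SYAT mESCs, 1 per antibody (GFP or SRCAP, diluted 50-fold; paired reads of 75 nt from inserts of 250 bp), were taken as deposited. The members and lists were chosen with earlier results of these data known. Per the labels, the tools named were STAR, Picard and MACS2 and the builds mm10 and dm6, with no versions. The authors deposited 1 list per library with a score per peak whose meaning was not stated, and the study's ChIP-seq methods give a MACS2 call on paired fragments against an input, but do not state if the CUT&RUN lists were called so. Calling without a matched control would leave regions of high read density among the peaks. Peak ends fitted GRCm38.

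Peaks were placed at their midpoints, since summits were not used here, and blacklisted regions were not removed. TSSs came from GENCODE vM21 and sequence from GRCm38. Shares were given Wilson and densities exact Poisson 95% intervals (SciPy 1.17.1; Python 3.11.15; pandas 2.3.3). The steps were tested on simulated data and overlaps checked against bedtools 2.31.1. Every member with a promoter peak and every peak of the locus is named. Alternatives were another window, start-site set, overlap rule, score threshold, locus, sequence window, motif mismatch and word length. Sequence letters of these genes are not reported here, nor is 1 gene of the list of proteins that act with them.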

Additional observations from a re-analysis of the deposited data

How the results depend on the processing

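With 1 library per antibody no difference was set against a replicate spread, and intervals cover counting error only. No paired analysis was possible because there was 1 library for each antibody. Read depth is unknown, so a missing peak may be a site under the calling threshold. With only the peaks whose score reached the list median of 47, promoter peaks were left at 13 members (GFP, 22.8%), 9 (SRCAP, 15.8%) and 6 (both, 10.5%), beside 22.2%, 23.5% and 16.0% of all protein-coding genes. By cluster this left 0 Pcdha genes in the GFP list, 2 (GFP) and 1 (SRCAP) Pcdhb genes, and 7 Pcdhg genes in the SRCAP list and 5 in both, while 11 of 13 Pcdhg genes stayed in the GFP list. The Pcdhg shares were then 52.4% (GFP), 33.3% (SRCAP) and 23.8% (both), beside the same 22.2%, 23.5% and 16.0% of all protein-coding genes. The density of the locus fell to 26.3 GFP and 14.3 SRCAP peaks per Mb, and the downstream Pcdhb peaks to 2 (GFP) and 0 (SRCAP) genes, so those peaks were mostly of low score. A window of 2500 bp either side of the TSS took in part of that second set and raised the Pcdhb counts to 14, 7 and 6 genes in the GFP list, the SRCAP list and both (63.6%, 31.8% and 27.3%), beside 41.6%, 41.9% and 32.6% of all protein-coding genes. The CTCF consensus with 1 mismatch was found in the promoter windows of 3 members (1 in Pcdha, 1 in Pcdhb and 1 in Pcdhg, beside 16.8% of all protein-coding promoters). Exact matches were found within 2500 bp at 19 members (6 in Pcdha and 13 in Pcdhb). Start sites of protein-coding transcripts only, overlap in place of midpoints, other overlap rules, the flanks, the other sequence windows and 50-base stretches moved no count or median by over 1.5 times and no share or density beyond its interval.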
